A study of Mus musculus with 7 samples.

Results

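T cells carry a set of proteins, most of them intracellular, that shorten or weaken the signal from the T-cell receptor (TCR). The genes examined are 10 such brakes, *Cblb*, *Cbl*, *Ubash3a*, *Ubash3b*, *Ptpn22*, *Ptpn6*, *Dgka*, *Dgkz*, *Rasa2* and *Cd5*, taken by gene symbol from 55367 genes counted in CD8+ T cells. All 10 had enough counts to be among the 12623 genes tested. The cells were sorted from spleens of mice of the strain Foxp3 YFP/cre, in which the Foxp3 locus also expresses a yellow fluorescent protein and Cre, so that all 7 libraries share this allele. They received small extracellular vesicles (sEVs) for 48 h, given as 100 µg/ml in the labels for both groups, whereas the methods describe the physiologic amount of each kind of spleen. HCME-sEVs came from spleens of healthy mice (control EVs, 4 libraries) and LME-sEVs from spleens of leukemic Eμ-TCL1 mice (leukemia EVs, 3 libraries), a model of chronic lymphocytic leukemia in which the TCL1 transgene is driven in B cells. These sizes follow the labels; a legend in the paper gives them the other way round. The methods put mice at 8 to 10 weeks of age unless stated otherwise. Whether the libraries of a group came from separate animals or cultures is not given in the sources used here, so p-values measure the spread between these libraries, which may be technical. The methods describe CD8+ T cells kept on wells coated with anti-CD3, with anti-CD28 and IL2, that is with TCR stimulation, but for cells isolated with a kit, and the labels do not say whether the sorted cells of these libraries were cultured so.

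When the TCR binds its ligand, the kinase Lck phosphorylates the receptor's CD3 and zeta chains, ZAP-70 docks there and phosphorylates LAT and SLP-76, and PLCγ1 then makes diacylglycerol, which switches on Ras and protein kinase C. The brakes act at successive steps. Cbl-b and c-Cbl attach ubiquitin to signalling proteins, the UBASH3 proteins and PTPN22 remove phosphate from ZAP-70 or Lck, SHP-1 (encoded by *Ptpn6*) is a further tyrosine phosphatase, diacylglycerol kinases alpha and zeta remove diacylglycerol, RASA2 returns Ras to its inactive form, and CD5 is a surface coreceptor whose tail recruits inhibitory proteins. Several are known for limiting T-cell responses to tumors, and Cbl-b and the diacylglycerol kinases are associated with T-cell anergy.

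Values are counts of unique molecules at the 3′ ends of transcripts, given relative to library size as CPM with edgeR's TMM scaling (trimmed mean of M values). Gene length does not enter, so that CPM of different genes can be set side by side, apart from differences in how well each 3′ end is captured. Libraries held from 3689831 to 5030522 counts, and 3 counts corresponded to between 0.582 and 0.807 CPM. Differences are LME-sEVs over HCME-sEVs on the log2 scale, and a gene was called at a false discovery rate (FDR) under 0.05 in the quasi-likelihood test of edgeR, with p-values adjusted by Benjamini and Hochberg across the 12623 genes. In RNA of a whole culture, fewer cells that express a gene and less RNA per cell cannot be told apart. The cells matched their label: *Cd8a* had from 1361 to 2167 counts in a library and *Cd4* from 0 to 3.

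Of the 10 brakes, 3 rose with LME-sEVs, namely *Cblb*, *Ptpn22* and *Dgka*, and 0 fell by edgeR, DESeq2 or limma-voom, with 1 lower gene, *Ptpn6*, at an unadjusted p under 0.05 in edgeR. The changes were small, between 1.26-fold and 1.47-fold. Among all tested genes 8.96% were called, 3.75% higher and 5.21% lower. Brakes are well expressed, and of the 2706 genes whose mean level lay within the range of theirs 15.6% were called, 4.88% higher. None of the 10 passed the additional cutoff of a log2 fold change beyond 1, which 1.28% of all genes did. The libraries of both groups did not overlap for 5 of the 10, 4 higher and 1 lower, against 20.3% of all genes, and 5 had an unadjusted p under 0.05, against 22.7%. Both of these shares are over all tested genes and were not taken for genes at the level of the brakes. The median log2 fold change was 0.08 over the 10 and 0.01 over all genes. With either LME-sEV library 2 or 3 left out, 1 brake remained called, *Cblb*.

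**Figure D1:**
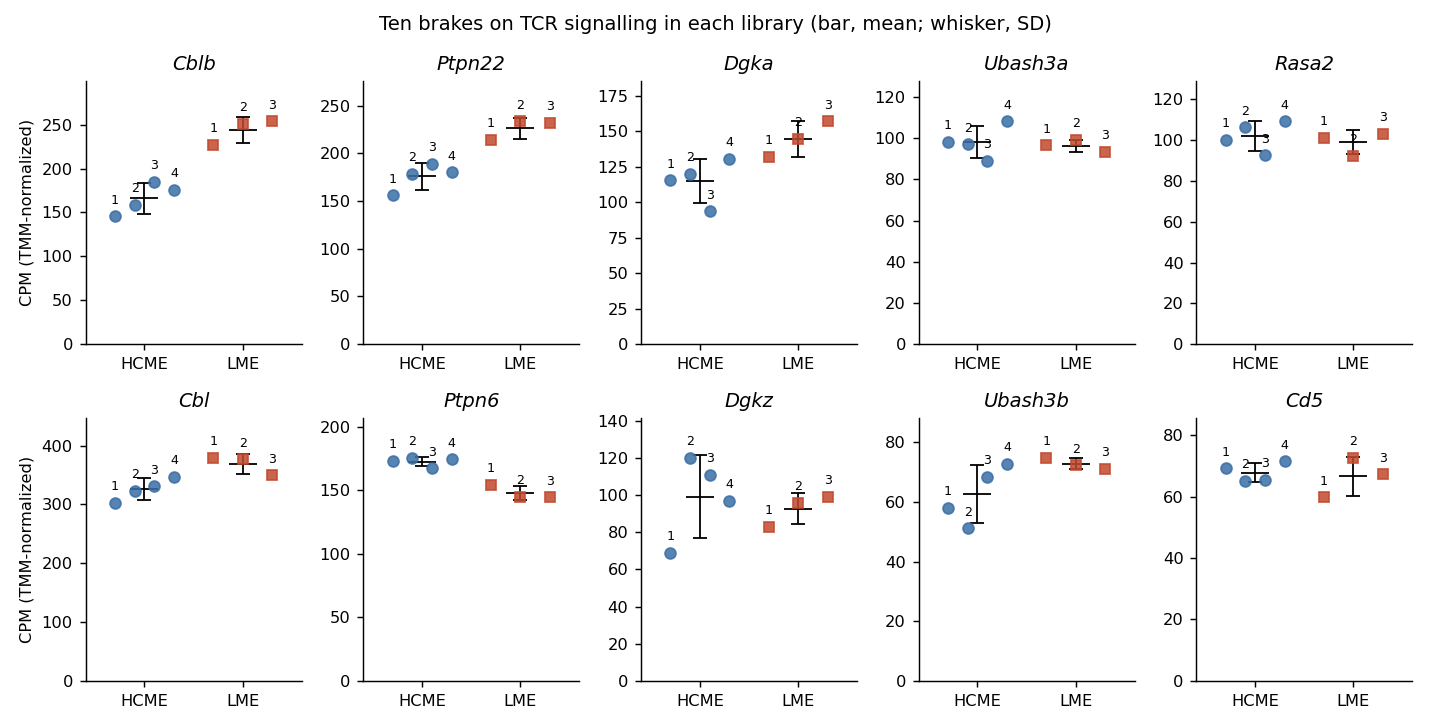
Each panel shows 1 gene as TMM-normalized CPM on an axis that starts at 0, with 1 point per library (numbered) for HCME-sEVs (circles, n = 4) and LME-sEVs (squares, n = 3), the mean as a horizontal bar and the SD as a whisker. The 3 squares lie above all circles for *Cblb*, *Ptpn22*, *Dgka* and *Cbl*, and below them for *Ptpn6*.

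The 250 bases before the transcript start are given for the 3 genes that rose and for *Cbl* and *Ptpn6*, the relatives of *Cblb* and *Ptpn22* that were not called, so that the promoters of genes with related roles can be set beside each other. The 7 letters GTGGGCG, part of the motif bound by EGR factors, were searched on both strands because EGR2 and EGR3 have been linked to the expression of *Cblb* and *Dgka*, and matches are in capitals. Sequences are from RefSeq on GRCm38.p6, written 5′ to 3′ along the transcribed strand.
Cblb (chr16:52031299-52031548, plus strand): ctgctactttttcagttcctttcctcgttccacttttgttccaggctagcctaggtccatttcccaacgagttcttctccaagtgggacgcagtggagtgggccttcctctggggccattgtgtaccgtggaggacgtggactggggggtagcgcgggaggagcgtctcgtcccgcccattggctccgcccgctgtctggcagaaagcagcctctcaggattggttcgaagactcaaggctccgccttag
Cbl (chr9:44234047-44234296, minus strand): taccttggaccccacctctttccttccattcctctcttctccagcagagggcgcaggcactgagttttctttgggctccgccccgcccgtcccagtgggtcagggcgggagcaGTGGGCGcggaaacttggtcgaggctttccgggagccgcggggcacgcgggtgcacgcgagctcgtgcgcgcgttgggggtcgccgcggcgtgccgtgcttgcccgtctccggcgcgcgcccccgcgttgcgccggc
Ptpn22 (chr3:103860027-103860276, plus strand): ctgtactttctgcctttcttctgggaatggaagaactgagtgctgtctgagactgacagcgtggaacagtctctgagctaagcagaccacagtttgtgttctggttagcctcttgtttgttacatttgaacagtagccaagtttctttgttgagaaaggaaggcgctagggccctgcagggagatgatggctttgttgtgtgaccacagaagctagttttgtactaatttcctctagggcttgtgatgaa
Ptpn6 (chr6:124738710-124738959, minus strand): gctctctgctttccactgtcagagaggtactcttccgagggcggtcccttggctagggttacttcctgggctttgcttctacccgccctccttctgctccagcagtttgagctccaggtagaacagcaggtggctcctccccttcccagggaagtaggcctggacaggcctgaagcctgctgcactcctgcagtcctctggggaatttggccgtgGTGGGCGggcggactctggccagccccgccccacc
Dgka (chr10:128744077-128744326, minus strand): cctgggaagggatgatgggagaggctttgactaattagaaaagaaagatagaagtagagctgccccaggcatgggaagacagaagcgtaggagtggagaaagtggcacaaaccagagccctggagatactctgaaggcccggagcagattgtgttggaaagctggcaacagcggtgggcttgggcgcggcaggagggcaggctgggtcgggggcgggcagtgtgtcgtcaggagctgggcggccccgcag

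GTGGGCG was found once each before *Cbl* and *Ptpn6*, which were not called, and not before *Cblb*, *Ptpn22* or *Dgka*. The windows are not alike in place. Those of *Cblb*, *Ptpn22* and *Dgka* lie within the annotated gene, whereas those of *Cbl* and *Ptpn6* lie almost wholly before it. Of all 32851 promoter windows of this length in the RefSeq table, 7.02% hold it. Searches on both strands for the FOXO letters GTAAACA (in 3.17% of windows), the E-box CACGTG (6.02%) and the AP-1 letters TGANTCA (6.75%) found no match in any of the 10 brakes' windows. Beyond the 5 printed, the window of *Dgkz* holds 1 GTGGGCG match, although the annotation has no coding transcript that starts within 50 bases of it, and the windows of *Ubash3a*, *Ubash3b*, *Rasa2* (also with no such start nearby) and *Cd5* hold none. *Dgka* has 4 windows in the table and *Ptpn22* has 2, and those printed have a coding start within 50 bases. The share of G and C was 71.6% before *Cbl*, 58.8% before *Cblb*, 63.2% before *Ptpn6*, 46.0% before *Ptpn22* and 60.0% before *Dgka*, where the median of all windows is 52.4%. Other promoters and enhancers of these genes were not searched, and letters in a window do not show binding.

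*Cblb*, whose product Cbl-b is the main ubiquitin ligase that holds back T cells activated without costimulation, had the largest log2 fold change of the 10. It lies at chr16:52031225-52208048 (plus strand of GRCm38, GENCODE vM21, as for all genes here). In HCME-sEV libraries 1 to 4 it was at 146, 159, 185 and 176 CPM, and in LME-sEV libraries 1 to 3 at 227, 251 and 254 CPM. Every LME-sEV library was thus above every HCME-sEV library. The mean was 166 ± 17.5 CPM with HCME-sEVs (SD, n = 4) and 244 ± 14.9 CPM with LME-sEVs (SD, n = 3), a log2 fold change of 0.55 (standard error 0.087, 95% interval 0.37 to 0.73, FDR = 6.08e-04 by edgeR with Benjamini-Hochberg adjustment), or 1.47-fold. This interval overlaps those of *Ptpn22* and *Dgka*. By its p-value *Cblb* stood at rank 59 of the 12623 genes. The exact permutation test of *Cblb* (two-sided, 35 divisions of the 7 libraries) gave p = 0.0286, which is the smallest possible. *Cblb* stayed called with each of the 7 libraries left out in turn, with log2 fold changes from 0.50 to 0.61.

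*Cbl*, its close relative, encodes c-Cbl and lies at chr9:44142976-44234049 (minus strand). It was the most abundant brake, at 302, 324, 331 and 347 CPM in HCME-sEV libraries 1 to 4 and at 379, 377 and 349 CPM in LME-sEV libraries 1 to 3. The groups did not overlap, although HCME-sEV library 4 and LME-sEV library 3 were close to each other. With means of 326 ± 18.6 CPM for HCME-sEVs (SD, n = 4) and 368 ± 16.7 CPM for LME-sEVs (SD, n = 3), the log2 fold change was 0.18 (standard error 0.075, 95% interval 0.02 to 0.33), which was not called (FDR = 0.159, edgeR with Benjamini-Hochberg adjustment). The end of a *Cbl* transcript is nearly identical to that of 12 other annotated genes, so its counts are uncertain. Of these 12, 9 are among the counted genes and had 0 counts in every library. The third gene of the family, *Cblc*, had 3 counts in HCME-sEV library 3 and 0 in the other 6, too few to be tested.

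Within a library, *Cblb* was at 0.509 of the level of *Cbl* with HCME-sEVs and at 0.662 with LME-sEVs, as means of the log2 ratio turned back to a linear scale. The log2 ratio was -1.05, -1.03, -0.84 and -0.98 in HCME-sEV libraries 1 to 4 and -0.74, -0.59 and -0.46 in LME-sEV libraries 1 to 3. The groups did not overlap, with means of -0.97 ± 0.096 (SD, n = 4) and -0.60 ± 0.14 (SD, n = 3) and a difference of 0.38, given as a description. The summed level of both ligases was between 448 and 523 CPM with HCME-sEVs and between 603 and 628 CPM with LME-sEVs.

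*Ptpn22* encodes the phosphatase that, together with the kinase Csk, keeps Lck in check, and lies at chr3:103859795-103912247 (plus strand). It was at 156, 179, 189 and 180 CPM in HCME-sEV libraries 1 to 4 and at 214, 234 and 232 CPM in LME-sEV libraries 1 to 3, again without overlap. The rise was from 176 ± 14.2 CPM with HCME-sEVs (SD, n = 4) to 226 ± 10.9 CPM with LME-sEVs (SD, n = 3), or 1.29-fold, with a log2 fold change of 0.37 (standard error 0.081, 95% interval 0.20 to 0.53, FDR = 0.0077, edgeR with Benjamini-Hochberg adjustment). The exact permutation test gave p = 0.0286. Without LME-sEV library 2 the FDR of *Ptpn22* was 0.0570 and without LME-sEV library 3 it was 0.0509 in the same edgeR test, with log2 fold changes of 0.34 and 0.35.

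*Ptpn6*, at chr6:124720707-124738714 (minus strand), encodes SHP-1, a phosphatase found throughout blood cells that dampens signals from many receptors. It went the other way, at 173, 176, 168 and 175 CPM in HCME-sEV libraries 1 to 4 and 154, 145 and 145 CPM in LME-sEV libraries 1 to 3. Each LME-sEV library was below each HCME-sEV library. The means of 173 ± 3.62 CPM for HCME-sEVs (SD, n = 4) and 148 ± 5.57 CPM for LME-sEVs (SD, n = 3) gave a log2 fold change of -0.22 (standard error 0.076, 95% interval -0.38 to -0.07), which missed the threshold (FDR = 0.0698, edgeR with Benjamini-Hochberg adjustment; exact permutation p = 0.0286). *Gm20531*, whose exons overlap *Ptpn6* on the opposite strand, had at most 2 counts in a library.

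The level of *Ptpn22* relative to *Ptpn6* separated the groups. This follows from both genes, since *Ptpn22* was above and *Ptpn6* below all HCME-sEV libraries in every LME-sEV library. With HCME-sEVs, *Ptpn22* and *Ptpn6* were at nearly the same level, with log2 ratios of -0.15, 0.02, 0.17 and 0.05 in libraries 1 to 4. With LME-sEVs, *Ptpn22* was ahead in all 3 libraries, by 0.47, 0.69 and 0.68. The mean log2 ratio was 0.02 ± 0.13 (SD, n = 4) against 0.61 ± 0.12 (SD, n = 3), that is 1.02 and 1.53 on a linear scale. The difference of 0.59 is a description of these 7 libraries and was not tested. Of their relatives, *Ptpn2*, which encodes another T-cell tyrosine phosphatase, had a log2 fold change of -0.17 (FDR = 0.335) and *Ptpn11*, which encodes SHP-2, of 0.00 (FDR = 0.99, edgeR with Benjamini-Hochberg adjustment), and neither was called.

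**Figure D2:**
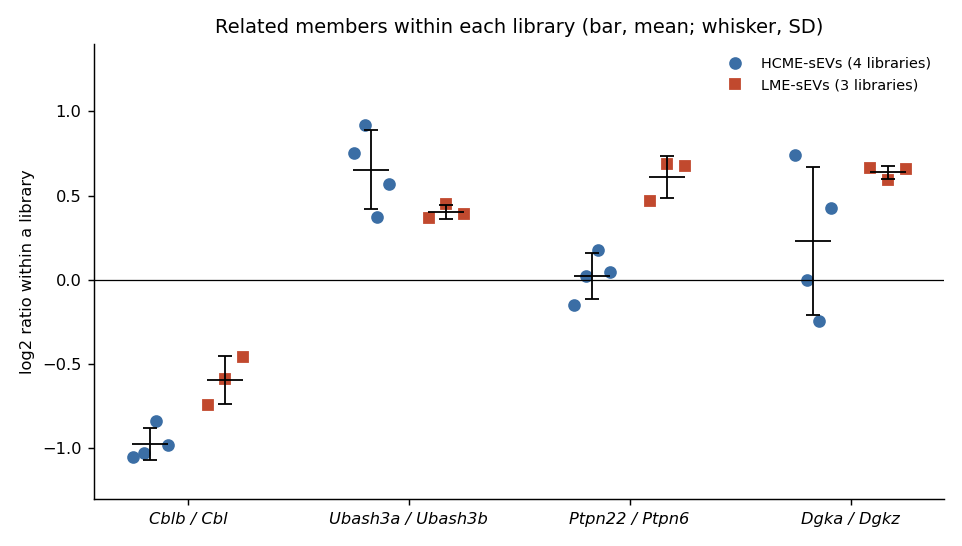
The log2 ratio of 4 pairs of related brakes within each library is plotted, with HCME-sEV libraries as circles (n = 4), LME-sEV libraries as squares (n = 3), the mean as a bar and the SD as a whisker. The groups separate for *Cblb* to *Cbl* and for *Ptpn22* to *Ptpn6*, and overlap for *Ubash3a* to *Ubash3b* and for *Dgka* to *Dgkz*.

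*Dgka* encodes diacylglycerol kinase alpha, which converts the diacylglycerol made after TCR binding into phosphatidic acid, and lies at chr10:128720134-128744855 (minus strand). It was at 115, 120, 93.6 and 131 CPM in HCME-sEV libraries 1 to 4 and at 132, 144.5 and 157 CPM in LME-sEV libraries 1 to 3. The groups barely separated, with HCME-sEV library 4 next to LME-sEV library 1. *Dgka* rose 1.26-fold, from 115 ± 15.6 CPM with HCME-sEVs (SD, n = 4) to 144.5 ± 12.6 CPM with LME-sEVs (SD, n = 3), a log2 fold change of 0.33 (standard error 0.10, 95% interval 0.12 to 0.54, FDR = 0.0418, edgeR with Benjamini-Hochberg adjustment; exact permutation p = 0.0571). This call was the least firm of the 3. It was lost without HCME-sEV library 2 (FDR = 0.0734), HCME-sEV library 3 (FDR = 0.0893), LME-sEV library 2 (FDR = 0.137) or LME-sEV library 3 (FDR = 0.221, all in the same edgeR test), with log2 fold changes from 0.25 to 0.40 over all 7 fits. *Pmel*, on the opposite strand with overlapping exons, had at most 4 counts in a library.

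*Dgkz*, which encodes the zeta isoform (chr2:91932824-91975864, minus strand), was at 68.9, 120, 111 and 97.1 CPM in HCME-sEV libraries 1 to 4 and at 83.1, 95.7 and 99.3 CPM in LME-sEV libraries 1 to 3. The LME-sEV values lay inside the wide range of the HCME-sEV values. The log2 fold change was -0.09 (standard error 0.13, 95% interval -0.37 to 0.18, FDR = 0.744, edgeR with Benjamini-Hochberg adjustment), and the interval includes both directions. The log2 ratio of *Dgka* to *Dgkz* was 0.23 ± 0.44 (SD, n = 4) with HCME-sEVs and 0.64 ± 0.04 (SD, n = 3) with LME-sEVs, with overlapping libraries. Of the 2 most abundant further isoforms, *Dgkh* (eta) rose and *Dgkd* (delta) was not called, at a log2 fold change of 0.11 (FDR = 0.456, edgeR with Benjamini-Hochberg adjustment). The exons of *Usp40* (80 to 108 counts in a library) overlap *Dgkd* on the opposite strand.

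The UBASH3 genes were not called. *Ubash3a*, the form found mainly in lymphocytes (chr17:31207873-31246892, plus strand), was at 98.3, 97.1, 89.1 and 108 CPM in HCME-sEV libraries 1 to 4 and at 96.6, 99.1 and 93.5 CPM in LME-sEV libraries 1 to 3. Its log2 fold change was -0.03 (standard error 0.087, 95% interval -0.21 to 0.15, FDR = 0.889, edgeR with Benjamini-Hochberg adjustment), and the groups lay within each other. *Ubash3b*, which encodes the more active phosphatase of the pair (chr9:41011098-41161697, minus strand), was at 58.1, 51.2, 68.6 and 72.9 CPM and at 74.8, 72.4 and 71.2 CPM. HCME-sEV libraries 1 and 2 were the low ones, and library 4 lay inside the LME-sEV range. The log2 fold change of 0.21 (standard error 0.11, 95% interval -0.01 to 0.44) had an FDR of 0.253 in the edgeR test with Benjamini-Hochberg adjustment.

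*Rasa2* encodes an activator of the GTPase of Ras and lies at chr9:96539300-96631617 (minus strand). It was at 99.98, 106, 92.6 and 109 CPM in HCME-sEV libraries 1 to 4 and at 101, 92.1 and 103 CPM in LME-sEV libraries 1 to 3. The groups overlapped almost fully, with a log2 fold change of -0.05 (standard error 0.088, 95% interval -0.23 to 0.14, FDR = 0.815, edgeR with Benjamini-Hochberg adjustment). Its relatives *Rasa1* and *Rasa3* were not called either, at -0.11 (FDR = 0.541) and 0.17 (FDR = 0.496, edgeR with Benjamini-Hochberg adjustment). *Rasa1* has *Ccnh* (336 to 486 counts in a library) on the opposite strand with overlapping exons.

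*Cd5*, at chr19:10717116-10739002 (minus strand), is the one member whose product sits in the cell membrane. It was at 69.1, 65.1, 65.4 and 71.5 CPM in HCME-sEV libraries 1 to 4 and at 59.7, 72.6 and 67.3 CPM in LME-sEV libraries 1 to 3, and the groups overlapped. The log2 fold change was -0.02 (standard error 0.095, 95% interval -0.22 to 0.17, FDR = 0.918, edgeR with Benjamini-Hochberg adjustment). *Cd6*, a close relative, was at -0.07 (FDR = 0.723). *Cd72* and *Alcam*, which encode a proposed ligand of CD5 and the ligand of CD6, both rose, *Cd72* by a log2 fold change of 0.92 (FDR = 0.00883, from 6.81 ± 1.19 to 12.8 ± 2.74 CPM) and *Alcam* by 0.37 (FDR = 0.00717, from 88.0 ± 4.0 to 114 ± 1.24 CPM, SD, n = 4 and n = 3, edgeR with Benjamini-Hochberg adjustment). The call of *Cd72* was lost without LME-sEV library 2 (FDR = 0.0570) or library 3 (FDR = 0.0808, edgeR). *Cd72* is uncertain, since exons of *Tesk1* (71 to 160 counts in a library) overlap it on the opposite strand.

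CD5 is also carried by the leukemic B cells of this mouse model, from whose spleens the LME-sEVs came, and CD72 is a B-cell protein. Of the 14 B-cell markers, 8 were tested and 3 rose, *Ighm*, *Igkc* and *Cd74*. For this and the marker lists that follow, the share called higher over all tested genes was 3.75%. The summed level of the 14 was 261 to 303 CPM with HCME-sEVs and 353 to 388 CPM with LME-sEVs. Most of this sum was *Ighm*, at 220 to 263 CPM and 299 to 325 CPM. The log2 fold change was above 0 for 7 of the 8 tested, and that of *Ms4a1* was -0.38 (FDR = 0.742, edgeR). *Pax5*, not tested, had 2 to 6 counts in an HCME-sEV library and 1 in each LME-sEV library. Few counts in a library were found for *Cd79a* (0 to 2), *Fcer2a* (0 to 1), *Blk* (0 to 2), *Cd22* (0 to 3), *Pax5* (1 to 6) and *Ms4a1* (1 to 7), whereas *Cd79b* had 7 to 22 (log2 fold change 0.17, FDR = 0.828) and *Ighd* 9 to 29 (0.81, FDR = 0.105, edgeR), the latter with LME-sEV libraries above all others. Of 6 tested markers of basophils and mast cells, 3 also rose, *Prg2*, *Prss34* and *Mcpt8*, whereas *Cpa3*, *Fcer1a* and *Gata2* were not called. The log2 fold change was above 0 for 5 of the 6, and that of *Cpa3* was -0.26 (FDR = 0.721, edgeR). This list had a summed level of 5.54 to 35.2 CPM against 29.1 to 46.1 CPM. Among 7 tested erythroid and platelet markers 3 rose, *Ppbp*, *Pf4* and *Hba-a1*, at a summed 74.7 to 182 CPM against 158 to 205 CPM. DESeq2 called 0 of these basophil, mast-cell, erythroid and platelet markers and 2 B-cell markers. Of the 10 CD8 T-cell markers, *Cd3e* and *Cd3g* rose, and the list summed to 4623 to 4760 CPM against 4828 to 5423 CPM. The log2 fold change was above 0 for 9 of the 10. *Cd8a* (0.20, FDR = 0.0891) and *Cd8b1* (0.19, FDR = 0.148, edgeR) were not called, although their LME-sEV libraries lay above all HCME-sEV libraries. Myeloid and natural killer markers had 0 of 2 tested genes called each, with 1 and 0 at an unadjusted p under 0.05 in the edgeR test and 0 called by DESeq2 or limma-voom, and sums of 3.73 to 6.26 against 7.56 to 12.4 CPM and 31.7 to 75.9 against 48.4 to 77.3 CPM. The 3 CD4 T-cell markers, none tested, summed to between 0.964 and 1.6 CPM in any library. The part of these cells and of vesicle RNA in the values of the brakes was not tested.

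**Figure D3:**
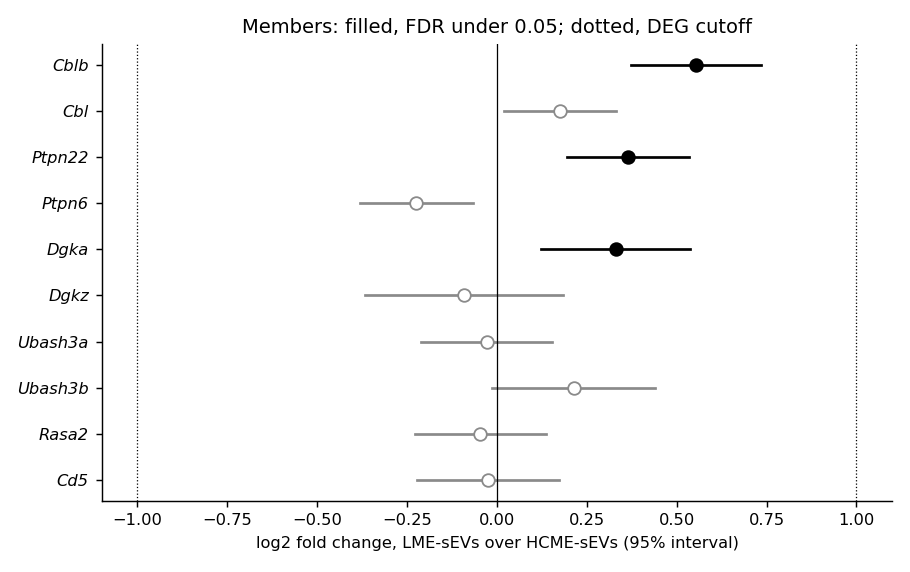
The log2 fold change of each brake (LME-sEVs over HCME-sEVs, horizontal axis) is shown with its 95% interval from edgeR, filled for an FDR under 0.05 and open otherwise, and dotted lines mark the cutoff of 1 in either direction. *Cblb*, *Ptpn22* and *Dgka* are filled, and every interval lies between both dotted lines.

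Taken by level, the brakes kept nearly the same order with a change near the top. With HCME-sEVs *Cbl* led, followed by *Ptpn22*, *Ptpn6* and *Cblb*, whose libraries overlapped one another at means of 176, 173 and 166 CPM. With LME-sEVs *Cblb* came after *Cbl* and above *Ptpn22* in each of the 3 libraries, although the ranges of *Cblb* and *Ptpn22* overlapped, and *Ptpn6* overlapped *Dgka* instead. With HCME-sEVs *Dgka* overlapped *Rasa2*, although it was higher in each of the 4 libraries. In both groups *Rasa2*, *Dgkz* and *Ubash3a* overlapped one another in the next places, and *Cd5* and *Ubash3b* were lowest and overlapped. All 10 brakes summed to 1386 ± 74.3 CPM (SD, n = 4), between 1287 and 1467 CPM, with HCME-sEVs and to 1558 ± 32.5 CPM (SD, n = 3), between 1521 and 1583 CPM, with LME-sEVs. Of this sum *Cblb* took 12.0% ± 0.91 and 15.6% ± 0.66, *Ptpn6* 12.5% ± 0.71 and 9.51% ± 0.56, and *Cbl* 23.5% ± 0.25 and 23.7% ± 1.35 (SD, n = 4 and n = 3).

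Other brakes on TCR signalling, a list of 60 genes, were examined in the same fit. Of 55 tested, 4 were called (7.27%), 2 in each direction, against 8.96% of all tested genes. The median log2 fold change of the 55 was 0.01. *Cish*, a cytokine-induced gene whose product directs PLCγ1 to degradation, fell most: it was at 239, 171, 145 and 213 CPM in HCME-sEV libraries 1 to 4 and at 109, 90.3 and 93.5 CPM in LME-sEV libraries 1 to 3, with no overlap. With means of 192 ± 42.2 CPM for HCME-sEVs (SD, n = 4) and 97.5 ± 9.82 CPM for LME-sEVs (SD, n = 3), its log2 fold change was -0.98 (standard error 0.13, FDR = 1.47e-04, edgeR with Benjamini-Hochberg adjustment), just inside the cutoff of 1, and it stayed called with any library left out. *Pik3ip1*, which encodes an inhibitor of PI3 kinase, rose from 35.7 ± 10.1 CPM with HCME-sEVs (SD, n = 4) to 58.7 ± 6.09 CPM with LME-sEVs (SD, n = 3), a log2 fold change of 0.72 (standard error 0.15, FDR = 0.00615, same test), and its FDR was 0.0573 without LME-sEV library 2.

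*Dgkh* rose by 0.38 on the log2 scale (FDR = 0.0434), from 61.8 ± 6.84 to 80.7 ± 13.8 CPM, with overlapping groups. *Inpp4b*, a phosphatase of PI3-kinase products, fell by 0.26 (FDR = 0.0490, edgeR with Benjamini-Hochberg adjustment), from 219 ± 19.3 to 183 ± 5.10 CPM (SD, n = 4 and n = 3). Both were fragile. *Dgkh* lost its call without HCME-sEV library 2 or 3 or LME-sEV library 1 or 3 (FDR from 0.0901 to 0.223), and *Inpp4b* without every library but HCME-sEV library 1 (FDR from 0.0718 to 0.180 in the same edgeR test). *Inpp4b* was also not called in 6 of 9 other settings: filterByExpr (0.0531), no minimum on counts (0.0728), 5 counts in every library (0.0542), the upper quartile (0.0760), library size only (0.115) and limma-voom (0.0512), and *Dgkh* was not called by limma-voom (adjusted p = 0.0537). None of 13 genes of kinase and phosphatase control, 7 of ubiquitin ligases and their adaptors and 18 of the Ras-ERK arm was called by edgeR, DESeq2 or limma-voom, with 1, 0 and 3 of them at an unadjusted p under 0.05 in edgeR. Over all tested genes, edgeR called 8.96%, and 22.7% had an unadjusted p under 0.05. *Csk*, the kinase that works with PTPN22, was at a log2 fold change of -0.11 (FDR = 0.447), and *Dusp6*, a phosphatase of ERK, at -0.31 (FDR = 0.0964, edgeR), both with LME-sEV libraries below all HCME-sEV libraries; these 2 were chosen after their values were seen. *Cblc*, *Dgkb*, *Dgki*, *Dgkk* and *Spry4* had too few counts to be tested.

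Of 30 genes whose products the brakes act on, 4 were called (13.3%), 3 higher and 1 lower. The share was 8.96% over all tested genes and 15.6% over those at the level of the brakes. The median log2 fold change of the 30 was -0.03. *Cd3e* and *Cd3g*, chains of the CD3 complex, rose by 0.36 (FDR = 0.0106) and 0.49 (FDR = 0.0405), and *Plcg1*, which encodes the enzyme that makes diacylglycerol, by 0.30 (FDR = 0.0408, edgeR with Benjamini-Hochberg adjustment). Both CD3 genes are the same ones counted above among the CD8 T-cell markers. *Cd3e* was at 109.6 ± 2.43 CPM with HCME-sEVs (SD, n = 4) and 140.0 ± 12.8 CPM with LME-sEVs (SD, n = 3) and *Plcg1* at 80.4 ± 7.27 and 99.1 ± 4.60 CPM, both without overlap, whereas *Cd3g* had overlapping groups at 80.6 ± 21.6 and 113 ± 16.8 CPM. Exons of *Zhx3* (26 to 55 counts in a library) overlap *Plcg1* on the opposite strand. *Hras*, one of 3 *Ras* genes measured, fell from 44.3 ± 1.02 CPM with HCME-sEVs (SD, n = 4) to 29.3 ± 1.16 CPM with LME-sEVs (SD, n = 3), a log2 fold change of -0.60 (standard error 0.11, FDR = 0.00148, edgeR), with the LME-sEV libraries at 28.1 to 30.4 CPM and the HCME-sEV libraries at 43.1 to 45.2 CPM. *Hras* stayed called with any library left out. Without LME-sEV library 2 or 3 it was the only one of the 30 called, and the FDR of *Cd3e* was then 0.0909 and 0.0548, that of *Cd3g* 0.193 and 0.181, and that of *Plcg1* 0.170 and 0.142 in the edgeR test. *Cd3g* and *Plcg1* also lost the call without HCME-sEV library 1 (FDR = 0.0707 and 0.0841) and in DESeq2 (adjusted p = 0.271 and 0.0552), *Cd3g* without HCME-sEV library 4 (0.129), and *Plcg1* without HCME-sEV library 2 (0.130) or LME-sEV library 1 (0.0566). The kinase genes *Lck* and *Zap70*, direct substrates of these brakes, had log2 fold changes of -0.03 (FDR = 0.854) and -0.07 (FDR = 0.713, edgeR); these 2 were named after their values were seen.

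**Figure D4:**
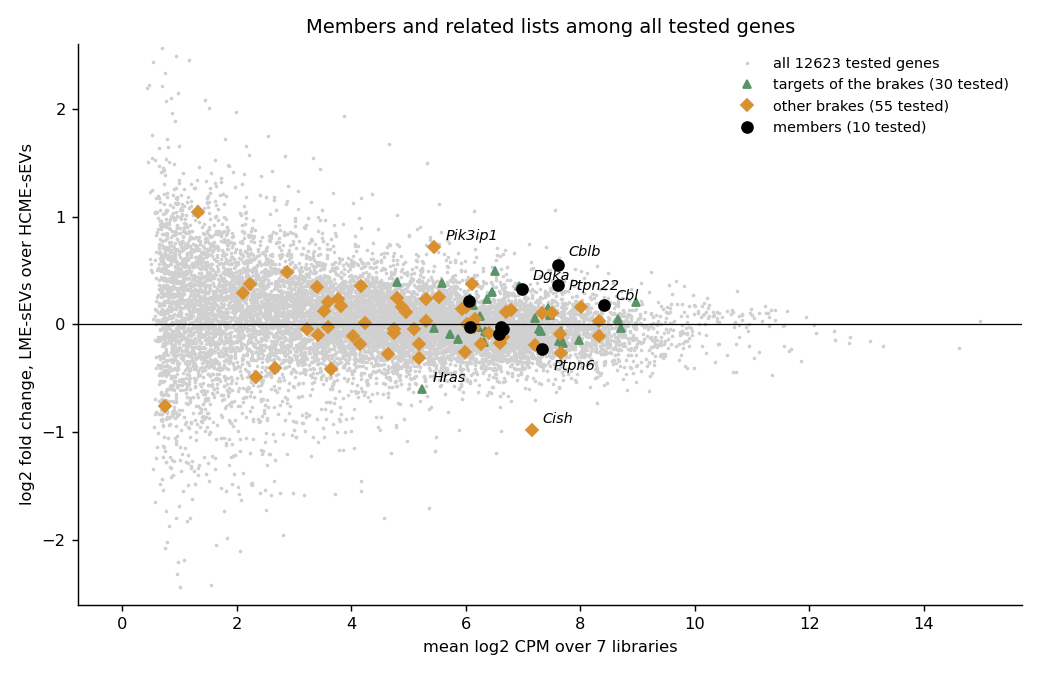
The log2 fold change (LME-sEVs over HCME-sEVs, vertical axis) is plotted against the mean log2 CPM over 7 libraries for all 12623 tested genes (grey), with the 10 brakes (black circles), 55 other brakes (orange diamonds) and 30 targets (green triangles). The brakes lie to the right, at the 75.1 percentile of level or above, within 0.55 of 0, and 9 genes of the grey cloud lie beyond the axis limit of 2.6 in either direction.

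Transcription factors known to regulate brake genes were examined last. *Egr3*, a gene switched on by TCR signals, was at 64.1, 72.2, 67.8 and 78.7 CPM in HCME-sEV libraries 1 to 4 and at 55.2, 56.4 and 55.3 CPM in LME-sEV libraries 1 to 3. It fell by 0.35 on the log2 scale (standard error 0.096, FDR = 0.0276, edgeR with Benjamini-Hochberg adjustment), with no overlap. This call was lost without HCME-sEV library 2 (FDR = 0.0736), HCME-sEV library 4 (0.0836) or any 1 LME-sEV library (0.0879 to 0.109 in the same edgeR test), and with scaling by library size only (0.0642). *Egr2*, of the same family, was at 21.9 ± 1.61 CPM with HCME-sEVs (SD, n = 4) and 19.0 ± 0.19 CPM with LME-sEVs (SD, n = 3), a log2 fold change of -0.20 that was not called (FDR = 0.408), although each LME-sEV library was below each HCME-sEV library. *Foxo1*, associated with the resting state, went from 120 ± 9.87 to 142 ± 7.76 CPM (SD, n = 4 and n = 3) without overlap, a log2 fold change of 0.25 (FDR = 0.0773, edgeR) that was not called here but was without HCME-sEV library 4 (FDR = 0.0374) and with scaling by library size only (FDR = 0.0408). *Foxo3*, *Nfatc1* and *Nfatc2* were not called, at 0.16 (FDR = 0.393), 0.00 (FDR = 0.989) and 0.22 (FDR = 0.238, edgeR with Benjamini-Hochberg adjustment).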

How the data were processed

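CD8+ T cells treated with HCME-sEVs (4 libraries) or LME-sEVs (3 libraries) for 48 h were profiled with the QuantSeq 3′ FWD kit with UMIs. The authors deposited raw counts per gene symbol, made with cutadapt 2.10, STAR 2.5.3a on GRCm38, UMI-tools 1.0.0 and featureCounts of Subread 2.0.0 (versions as in the submitters' processing notes). The annotation release and the strand setting of the counting are not given in the sources used here, so reads of genes that overlap on opposite strands cannot be told apart.

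A gene was tested if its counts averaged 5 or more over the libraries (12623 genes). After TMM normalization, glmQLFit and glmQLFTest of edgeR 4.0.16 (R 4.3.3) were run without covariates, and the FDR is the Benjamini-Hochberg value across these genes. Log2 CPM used a prior count of 2, and 95% intervals came from the quasi-likelihood fit. Exact permutation tests were two-sided, over 35 divisions of the libraries, with a smallest p of 0.0286. The test was checked on simulated data. Floors of 3 counts cover counting error only. Within groups, every pair of libraries differed by more than sampling noise (chi-square per degree of freedom 2.12 to 6.02).

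Positions were taken from GENCODE vM21, promoters from RefSeq (GRCm38.p6), and near-identical 3′ ends from blast 2.17.0 over the last 300 bases (95% identity over at least 200 bases).

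The brakes, lists and tests were chosen with earlier results of these data known. The text names all 10 brakes, up to 4 called genes per direction with the smallest FDR from the other brakes and the targets, fixed relatives, all 6 regulators, and called markers. The values of 1 marker are not reported here. Alternatives covered the minimum on counts, the scaling, DESeq2 1.42.0, limma-voom (limma 3.58.1), the replicate number as a block, and leaving out each library. Figures used matplotlib 3.10.9.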

Additional observations from a re-analysis of the deposited data

Results flagged for a closer look

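In the HCME-sEV group, a single library lay far from the other 3 for 2 of 36 results, judged by its distance from the next library divided by the whole range of the 4. For *Egr2*, library 3 was highest at 24.3 CPM and the others began at 20.95 CPM, a quotient of 0.899. For *Foxo3*, library 4 was highest at 48.0 CPM and the lowest was at 42.3 CPM, a quotient of 0.90. The critical value for 4 libraries is 0.829, and chance flags about 1 in 20 groups. None of the 10 brakes or their 4 ratios was flagged. The LME-sEV group, with 3 libraries, was not tested in this way.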

How the results depend on the processing

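*Cblb*, *Ptpn22* and *Dgka* were called, and higher, in all 9 other settings of the model, and the other 7 brakes in none. Scaling by library size only turned the log2 fold changes of *Ubash3a* and *Cd5*, both near 0, to 0.0162 and 0.021, and the replicate block turned that of *Ubash3a* to 0.0249. With a library left out, the range of log2 fold changes included a change of sign for *Ubash3a* (-0.0718 to 0.022), *Cd5* (-0.0904 to 0.0497), *Dgkz* (-0.233 to 0.0121) and *Rasa2* (-0.0891 to 0.0018), while *Dgka* ranged from 0.25 to 0.40 and *Ptpn22* from 0.31 to 0.41. The number called ranged from 1 to 3 for the brakes, 2 to 4 for the other brakes and 1 to 5 for the targets. DESeq2 called 2 targets and limma-voom 2 other brakes. *Nfatc1*, at a log2 fold change of 0.00, changed sign with filterByExpr (0.0037), no minimum on counts (0.0049), 5 counts in every library (0.0049), the upper quartile (0.0177), library size only (0.0416) and the block (0.017), and *Ptpn11* with limma-voom (-0.0053). With a library left out they ranged from -0.0237 to 0.0169 and from -0.0742 to 0.118. The causes were not tested.

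Over all genes, 473 were called higher and 658 lower, against 614 and 465 with library size only, which moved the median log2 fold change from 0.01 to 0.06. Without LME-sEV library 2 or 3, 391 and 458 genes were called. Replicate numbers 1 to 3 occur in both groups, and the sources used here do not say whether they mark a shared animal or day. Deviations from the group means correlated at 0.07, 0.15 and 0.03 between libraries of the same number. Between libraries of different numbers the correlations ran from -0.21 to 0.08, and HCME-sEV library 3 correlated best with LME-sEV library 1. With so few libraries these values cannot decide whether the numbers mark pairs. The replicate block called 1454 genes in place of 1131, 3 of them brakes. It ended the call of *Egr3* (FDR = 0.0531, edgeR) and made one of *Foxo1* (FDR = 0.0148, edgeR). The spread between 3 and 4 libraries limits the precision, and the 95% intervals give it for each brake.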
